A study of Mus musculus with 6 samples.

Results

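Ribosomal proteins are the protein parts of the cytosolic ribosome, which reads messenger RNA and joins amino acids into protein. The small 40S subunit decodes the message, the large 60S subunit forms the peptide bonds, and the P-stalk on the 60S subunit recruits the translation factors. Their messages are among the most abundant of a growing cell, and most begin with a run of pyrimidines, the 5′ terminal oligopyrimidine or TOP start, through which mTOR signalling sets how strongly they are translated. Embryonic stem cells divide fast and need a steady supply of new ribosomes.

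The genes described here were chosen by name, as all probes annotated with a symbol of Rpl or Rps and a number, or Rplp0, Rplp1, Rplp2 or Rpsa, without the Rps6 kinase genes and pseudogene symbols. This gave 96 of 45281 probes, for 65 of 19057 named genes. By the same rule a RefSeq gene table lists 89 protein-coding genes, of which 64 had a named probe; the other 25, among them Rpl5, Rpl10, Rpl11, Rpl7 and Rps27, are not analysed here. Of the 96 probes 82 were detected on at least 3 of the 6 arrays (detection p under 0.05) and were tested, and the other 14 were detected on no array. The 82 probes covered 60 genes, and Rpl6, Rpl17, Rps20, Rps23 and Rps23rg1 were left without a usable probe. The 60 tested genes comprised 21 of the 40S subunit, 28 of the 60S subunit, the 3 P-stalk genes, 7 variant or duplicate forms, and Rps19bp1, whose product binds a ribosomal protein and is not one itself.

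RNA came from E14 cells (strain 129/Ola), a widely used line of mouse embryonic stem cells, and was hybridised to Illumina bead arrays. In 3 Δ3/Δ3 samples both alleles of Lsd1 (Kdm1a), which encodes a histone H3 lysine 4 demethylase, were the deleted form that the labels name Δ3, and in 3 Lox/Δ3 samples 1 allele was Δ3 and the other Lox. Both groups thus carried a Δ3 allele, and no treatment was listed. The replicates are described as biological, with nothing on whether they were separate clones or cultures, so a p-value here reflects only how far these samples scatter.

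Median deposited signals were 73.8 to 83.7 per array, and 18506 to 19799 probes were detected. The Kdm1a probe checked the labels: its normalized log2 signal averaged 10.39 ± 0.18 (SD, n = 3) for Δ3/Δ3 and 11.94 ± 0.17 for Lox/Δ3, a difference of -1.56 ± 0.15 (SE; limma adjusted p = 0.0128), which lost its call without any of the Δ3/Δ3 arrays (limma adjusted p from 0.109 to 0.126). All 10 listed stem cell markers were detected on every array. Of 10 listed fibroblast markers 5 were tested. Their summed linear signals were 5889 to 8171 on the Δ3/Δ3 arrays and 4103 to 4480 on the Lox/Δ3 arrays. Limma called 0 of the 5, against 1.03% of all genes higher and 0.28% lower. Thy1 and Mmp2 were called higher in 8 of the 17 alternatives. Of the 5, 4 were above 0, against 46.4% of all genes, and Col1a1 was at -0.67 ± 0.57 (SE). Summed signals of 7 tested primitive endoderm markers reached 14360 on Lox/Δ3 array 3, against at most 5107 in Δ3/Δ3. The part of either marker group in the values below was not tested.

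RefSeq start regions (GRCm38.p6) were found for 51 of the 60 tested genes. The stretches below are shown because they carry CTTTC, a pyrimidine run of the kind found at TOP starts, at or near the annotated start of genes whose values follow; each is 30 bases on the gene's own strand, 5′ to 3′, with CTTTC in capitals.
Rpl13a (chr7:45128717-45128746, minus strand): agacctcctcCTTTCccaggcggctgccga
Rps26 (chr10:128626480-128626509, minus strand): gccggatcctCTTTCgagtcttggctccaa
Rps10 (chr17:27635221-27635250, minus strand): acgccccttcCTTTCcagcctccgcctcgg
Rpl39l (chr16:10170212-10170241, plus strand): gctcccaggcCTTTCcggatttccggtggt
Rpl38 (chr11:114668570-114668599, plus strand): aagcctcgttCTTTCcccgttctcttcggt
Rpl28 (chr7:4792957-4792986, plus strand): tcgtgtctctCTTTCcgtctccggccgcca

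In Rpl38 CTTTC opens at the annotated first base, in Rpl28, Rps10, Rps26 and Rpl13a it begins at base 3, 5, 8 and 10 of the annotated transcript, and in Rpl39l it begins 6 bases before the start. On the sense strand, within 50 bases either side of the start, 25 of the 51 genes (49.0%) held CTTTC, against 12.2% of 8680 tested genes with a start region. On either strand the shares were 62.7% and 22.2%. A C at the first base followed by 4 pyrimidines was found in 9 of the 51 (17.6%) and in 3.01% of the tested genes. CCGGAAG, the core letters bound by ETS factors such as GABPA, occurred on either strand between 250 bases before and 50 after the start in 22 of 51 (43.1%) and in 19.9% of the tested genes. TATAAA occurred on either strand of that stretch in 6 of 51 (11.8%) and 9.0%. These are matches of letters at annotated starts, which can lie away from the start used in these cells.

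No ribosomal protein gene passed the test in either direction. Of the 60 tested genes 0 were higher and 0 lower in Δ3/Δ3 cells at a limma Benjamini-Hochberg adjusted p under 0.05, where 1.03% of all 10712 genes tested were higher and 0.28% lower. At an unadjusted p under 0.05 in limma, 2 of the 60 (Rpl13a and Rpl39l) were higher, against 9.7% of all genes, and 0 were lower, against 8.47%. No member differed by 1.5-fold or more (0 of 60), while 8.5% of all genes, not matched for signal, did. The lowest adjusted p among the 60 was 0.122, for Rpl13a.

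The differences were small and lay on both sides of 0. Their median, Δ3/Δ3 minus Lox/Δ3, was 0.026 on the log2 scale (0.028 without Rps19bp1) against -0.025 over all genes tested, and they ranged from -0.28 for Rpl14 to 0.42 for Rpl13a. The median size of a difference without its sign was 0.076, against 0.18 over all genes. All genes were not matched to the members for signal. By member probe the median size was 0.053 at a mean deposited signal over 20000 and 0.22 under 1000. Among the function lists below the median size was smaller for glycolysis (0.054) and TOP start genes (0.069). In the others it was larger, from 0.099 (mitochondrial ribosomal proteins) to 0.26 (RNA polymerase I). Of the 60, 37 were above 0, or 61.7% against 46.4% of all genes. That split moved with the scaling: with cyclic loess 47 were above 0 and the median was 0.079, and with no normalization between arrays 29 were above 0 and the median was -0.0023.

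The 95% interval of the difference lay wholly within 1.5-fold for 52 of the 60 genes, against 53.6% of all genes, not matched for signal. For these genes a change of 1.5-fold or more lies outside the interval of the brightest kept probe. The exceptions were Rpl13a, Rps15a, Rpl39l and Rpl30 on the upper side and Rpl14, Rplp0, Rps19bp1 and Rps25 on the lower side. Of these Rps15a was by far the widest, from -0.51 to 1.30. In the fit of all kept probes, dimmer probes of some of the 52 genes had intervals that reached past 1.5-fold. Among them were 0.20 to 0.73 for Rpl23, 0.089 to 0.997 for Rps19 and -0.66 to 0.057 for Rpl31. The replicates of the 60 genes lay close together, with a median SD of 0.089 in Δ3/Δ3 and 0.090 in Lox/Δ3. Over all genes it was 0.18 in each genotype. Of the function lists below, the proteasome had like medians, 0.081 and 0.097, and the others larger ones. These groups were not matched for signal. Member probes with a mean deposited signal under 1000 had a median SD of 0.21 in Δ3/Δ3 and 0.16 in Lox/Δ3.

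**Figure D1:**
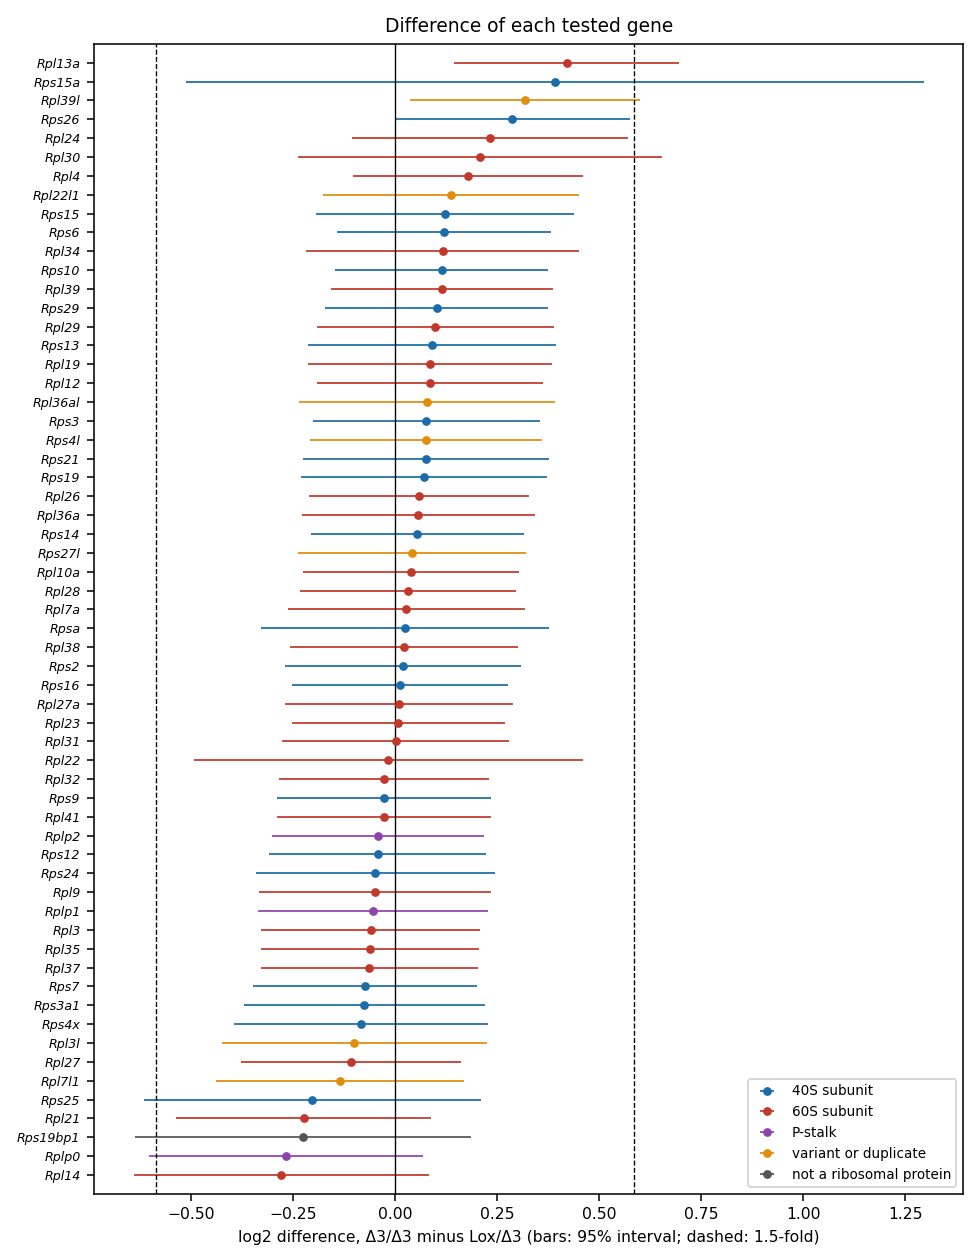
Log2 difference, Δ3/Δ3 minus Lox/Δ3, of each of the 60 tested genes (points) with its 95% interval from limma (bars), coloured by part of the ribosome; dashed lines mark 1.5-fold. The points run from -0.28 to 0.42, and 52 of the intervals lie between the dashed lines.

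Values on the arrays did not overlap between genotypes for 7 of the 60 genes. Higher on every Δ3/Δ3 array were Rpl13a, Rpl39l, Rps26, Rps6 and Rps10 (5 of 60, or 8.33%, against 11.3% of all genes), and lower were Rpl27 and Rpl32 (2 of 60, or 3.33%, against 12.5%). Both shares were below those over all genes, the first not far below, and neither comparison was tested.

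Among the 60S genes, Rpl13a, whose human protein also takes part in silencing inflammatory messages, had the largest difference. It measured 12.19, 12.19 and 12.38 in Δ3/Δ3 and 11.85, 11.82 and 11.83 in Lox/Δ3 cells (normalized log2 signal, arrays 1 to 3). All Δ3/Δ3 values lay above the highest Lox/Δ3 value, and the Lox/Δ3 values lay within a few hundredths of each other. The means were 12.25 ± 0.11 and 11.83 ± 0.013 (SD, n = 3), a difference of 0.42 ± 0.12 (SE; 95% interval 0.14 to 0.70), or 1.34-fold, which did not pass (limma adjusted p = 0.122). Over the 17 alternatives its difference stayed above 0, from 0.28 to 0.45, and its limma adjusted p was between 0.0526 and 0.516.

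Rpl24, which forms a bridge to the 40S subunit and is mutated in the Belly spot and tail mouse, was at 13.82, 13.92 and 13.71 in Δ3/Δ3 and 13.46, 13.82 and 13.46 in Lox/Δ3 cells. Lox/Δ3 array 2 reached into the Δ3/Δ3 range, and the difference was 0.23 ± 0.15 (SE; limma adjusted p = 0.463). At the other end, Rpl14 was at 5.68, 5.98 and 5.80 against 6.34, 6.07 and 5.89, a difference of -0.28 ± 0.16 (SE; limma adjusted p = 0.406). Its probe was near the bottom of the scale, with the groups overlapping. Rpl21 was at 7.49, 7.59 and 7.29 against 7.75, 7.55 and 7.74, with a difference of -0.22 ± 0.14 (SE; limma adjusted p = 0.447). In Rpl27 the Δ3/Δ3 values of 14.81, 14.84 and 14.68 all lay just below the Lox/Δ3 values of 14.87, 14.90 and 14.88, a difference of -0.11 ± 0.12 (SE; limma adjusted p = 0.691).

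Rpl23 and Rpl26 encode proteins known to act on the p53 pathway, through Mdm2 and through p53 translation. On their brightest probes they differed by 0.0086 (95% interval -0.25 to 0.27) and 0.060 (-0.21 to 0.33). Rpl38, needed for skeletal patterning in the mouse, differed by 0.023 (-0.26 to 0.30) on its brightest probe. Rpl10a had one of the 3 highest mean signals and a difference of 0.040 (-0.22 to 0.30). Of the 28 genes of the 60S subunit 0 were called by limma. At an unadjusted p under 0.05 in limma 1 was higher (Rpl13a), against 9.7% of all genes, and 0 lower, against 8.47%. The 28 genes had a median of 0.025, with 18 above and 10 below 0, where 46.4% of all genes were above 0. That median was -0.0049 without Δ3/Δ3 array 1, 0.052 without Δ3/Δ3 array 3, -0.0042 with no normalization between arrays and 0.077 with cyclic loess.

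**Figure D2:**
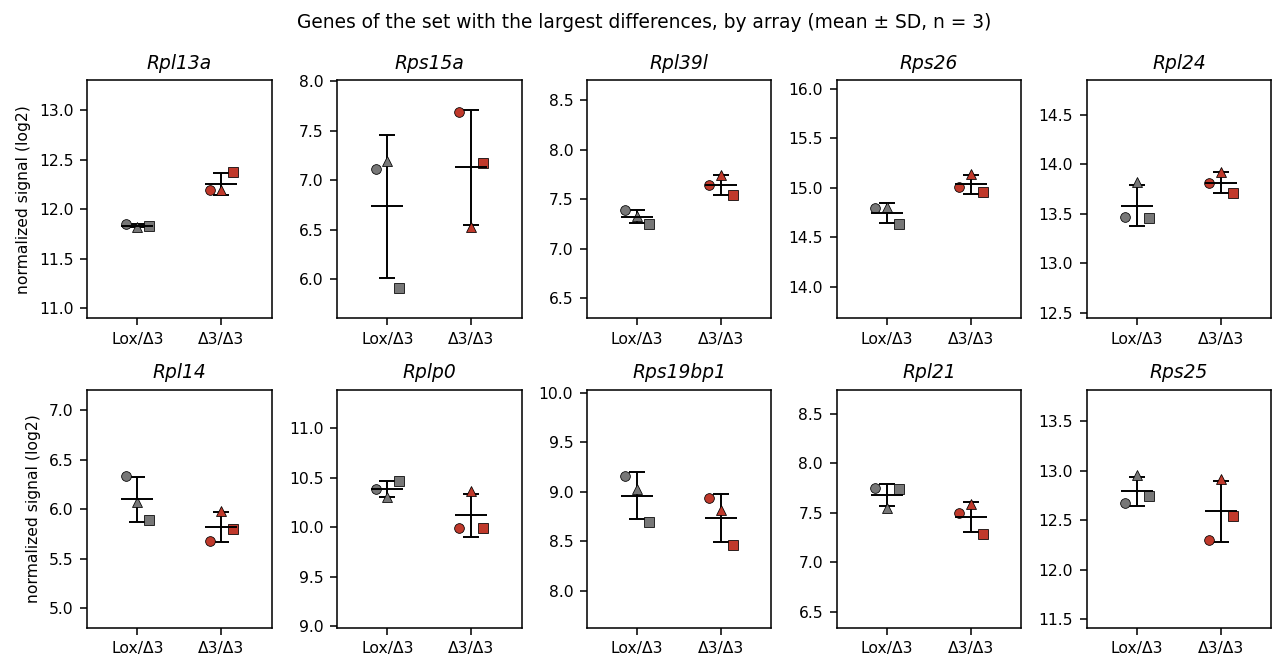
Normalized signal (log2) on each array for the 5 genes with the largest positive differences (top row) and the 5 with the largest negative ones (bottom row); circles, triangles and squares are replicates 1, 2 and 3, and bars give the mean ± SD of 3. Rpl13a, Rpl39l and Rps26 do not overlap between genotypes, and the other 7 genes do.

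Among the 40S genes, Rps26, which sits at the exit of the mRNA channel and is mutated in human Diamond-Blackfan anaemia, was at 15.01, 15.14 and 14.95 in Δ3/Δ3 and 14.80, 14.81 and 14.63 in Lox/Δ3 cells. The groups were apart, with Lox/Δ3 array 3 lowest. The difference was 0.29 ± 0.13 (SE; 95% interval -0.00090 to 0.58; limma adjusted p = 0.277). Rps15a had a similar difference, 0.39 ± 0.39 (SE; limma adjusted p = 0.657), from values of 7.69, 6.53 and 7.17 in Δ3/Δ3 against 7.11, 7.19 and 5.91 in Lox/Δ3. Its replicates spread over more than 1 log2 unit in each genotype, and without Lox/Δ3 array 3 its difference was -0.020. Rps25 was at 12.30, 12.92 and 12.54 against 12.67, 12.95 and 12.74, a difference of -0.20 ± 0.18 (SE; limma adjusted p = 0.611), with the groups overlapping. Rps19bp1, whose product binds the Rps19 protein, was at 8.93, 8.81 and 8.46 against 9.16, 9.03 and 8.69, and also overlapped, with a difference of -0.22 ± 0.18 (SE; limma adjusted p = 0.563).

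Rps6, the substrate of the S6 kinases, was at 14.65, 14.73 and 14.64 in Δ3/Δ3 and 14.54, 14.57 and 14.55 in Lox/Δ3 cells. The groups did not overlap, but the difference was only 0.12 ± 0.11 (SE; limma adjusted p = 0.634). Rps10 behaved likewise, at 14.21, 14.25 and 14.21 against 14.08, 14.09 and 14.16, with a difference of 0.11 ± 0.11 (SE; limma adjusted p = 0.652). Rps19, the gene most often mutated in human Diamond-Blackfan anaemia, differed by 0.071 (95% interval -0.23 to 0.37) on its brightest probe, and the X-linked Rps4x by -0.084 (-0.39 to 0.23). Rpsa, also known as a laminin receptor, differed by 0.024 (-0.33 to 0.38). Its probe was near the bottom of the scale, with a deposited signal of 98 to 123, and its other probe was detected on no array. Rps12 and Rps2, with 2 of the 3 highest mean signals, differed by -0.043 and 0.019. Of the 21 genes of the 40S subunit 0 were at an unadjusted p under 0.05 in limma, against 9.7% of all genes higher and 8.47% lower. The 21 genes had a median of 0.054, with 14 above and 7 below 0, where 46.4% of all genes were above 0. That median was -0.011 without Lox/Δ3 array 3, -0.0072 with array weights and 0.12 with cyclic loess.

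The 3 P-stalk genes were all below 0. Rplp0, whose protein anchors the stalk, was at 9.996, 10.37 and 9.995 in Δ3/Δ3 and 10.38, 10.31 and 10.47 in Lox/Δ3 cells. Δ3/Δ3 array 2 lay within the Lox/Δ3 range, and the difference was -0.27 ± 0.15 (SE; 95% interval -0.60 to 0.069; limma adjusted p = 0.388). Rplp1 and Rplp2, whose proteins form the flexible arms, differed by -0.054 and -0.041 (limma adjusted p = 0.867 and 0.890). The sign of Rplp2 turned with cyclic loess and with the authors' value table. That of Rplp1 turned with array weights and in 1 of the fits that left out an array.

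Several ribosomal proteins have a second gene, often active in other tissues. Rpl39l, the copy of the X-linked Rpl39 best known from male germ cells, was at 7.64, 7.74 and 7.54 in Δ3/Δ3 and 7.39, 7.33 and 7.25 in Lox/Δ3 cells. All Δ3/Δ3 values were above all Lox/Δ3 values, with a difference of 0.32 ± 0.12 (SE; 95% interval 0.038 to 0.60), or 1.25-fold, that did not pass (limma adjusted p = 0.221). Rpl39 itself was at 14.99, 14.92 and 14.91 against 14.80, 14.92 and 14.76, a difference of 0.11 ± 0.12 (SE; limma adjusted p = 0.669). Whether the copy and its partner differ from each other in their response was not tested.

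The striated muscle form Rpl3l differed by -0.100 (95% interval -0.42 to 0.22) and Rpl3 by -0.060 (-0.33 to 0.21). For Rpl22l1 and Rpl22 the differences were 0.14 (-0.18 to 0.45) and -0.016 (-0.49 to 0.46), and Lox/Δ3 array 3 read 11.80 for Rpl22 where arrays 1 and 2 of that genotype read 11.04 and 11.28. Rpl36al and Rpl36a were at 0.078 and 0.058, Rps27l, a p53 target gene, at 0.042, Rps4l at 0.076 and Rpl7l1 at -0.13. Limma's adjusted p for these 9 genes lay above 0.6. The 7 variant forms had a median of 0.076, with 5 above and 2 below 0, where 46.4% of all genes were above 0. Limma called 0 of the 7, against 1.03% of all genes higher and 0.28% lower. At an unadjusted p under 0.05 in limma 1 was higher (Rpl39l), against 9.7% of all genes, and 0 lower, against 8.47%. Copies and pseudogenes of these genes are near identical in sequence, and which transcripts each probe binds was not examined.

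Probes of 1 gene did not always give the same difference, and the widest gaps lay between a dim and a bright probe. In the fit of all 19652 kept probes 0 of the 82 ribosomal protein probes were called higher and 0 lower by limma's adjusted p, against 0.901% and 0.249% of all probes. At an unadjusted p under 0.05, 4 were higher, against 8.6%, and 0 lower, against 7.83%. Probes without overlap numbered 8 higher (9.76%, against 10.4%) and 4 lower (4.88%, against 11.8%). The 4 at an unadjusted p under 0.05, named after their values were seen, belonged to Rpl13a, Rpl39l, Rpl23 and Rps19.

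Rpl23 had 3 kept probes. Its dimmest was at 10.77, 10.68 and 10.74 in Δ3/Δ3 and 10.22, 10.31 and 10.27 in Lox/Δ3 cells, a difference of 0.46 ± 0.12 (SE; limma adjusted p = 0.0998), with no overlap. Its brighter probes differed by 0.023 and 0.0086. The same held for Rps19, where the dim probe, at 7.29, 7.05 and 6.71 against 6.63, 6.64 and 6.15, differed by 0.54 ± 0.20 (SE; limma adjusted p = 0.222) and the bright probe by 0.071. For Rpl38 the dimmer probe was at 0.41 ± 0.19 (SE; limma adjusted p = 0.335) and the brighter at 0.023.

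Other dim probes went the opposite way. Rpl31 had differences of -0.30, -0.19 and 0.0024 from its dimmest to its brightest probe, Rpl28 of -0.26 and 0.032, and a Rpl27a probe that was detected on 3 arrays in all stood at -0.30 beside 0.0085 to 0.058 on the other 3. Rpl21, Rpl30, Rpl29 and Rpl4 gave like values on each of their probes, all 3 of Rpl21 below 0 (-0.29 to -0.20) and both of Rpl30 above it (0.19 and 0.21). Of 16 genes with several kept probes, 9 had all on 1 side of 0 and 7 on both, and the median spread between probes of a gene was 0.12.

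Grouped by deposited signal, with limits chosen after the data were seen, the 38 member probes with a mean over 20000 had differences between -0.11 and 0.29 (median size 0.053). The 27 probes between 1000 and 20000 ranged from -0.30 to 0.46 (median size 0.11), and the 17 under 1000 from -0.30 to 0.54 (median size 0.22). The median SD over the Δ3/Δ3 arrays was 0.050, 0.12 and 0.21 in these groups, in the same order. Of the 100 brightest probes of an array 23 to 27 were members, and the brightest probe of any kind read 44616 to 56658. Whether signals so near the top of the scale follow the amount of RNA in proportion was not tested.

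**Figure D3:**
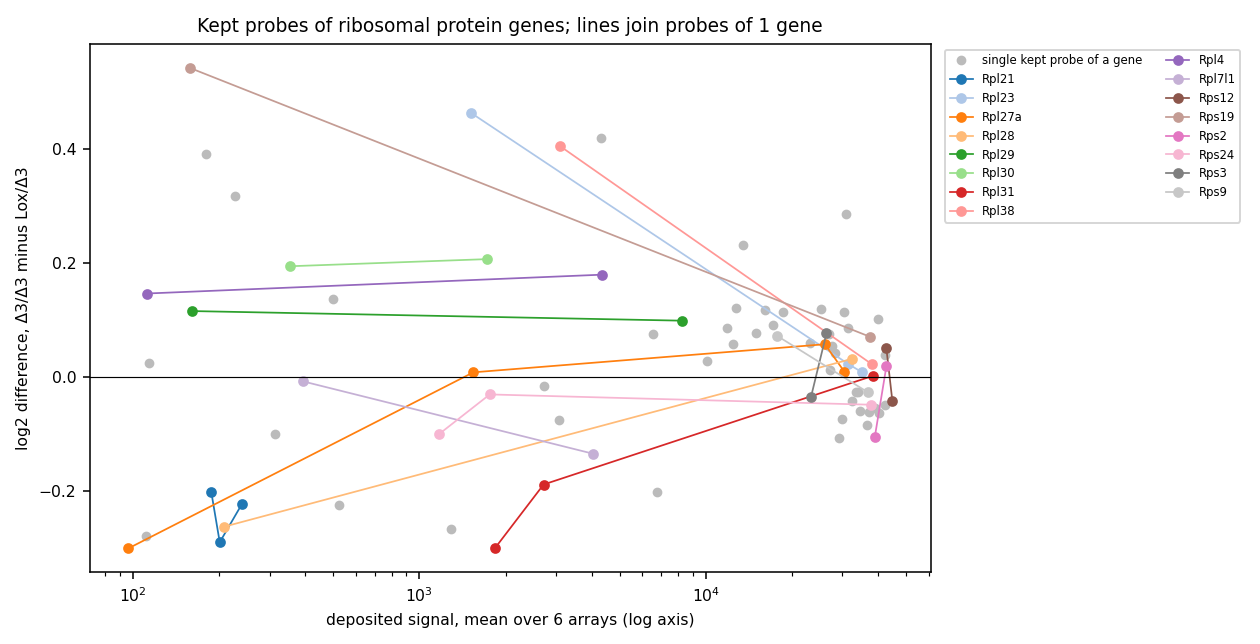
Log2 difference, Δ3/Δ3 minus Lox/Δ3, of each of the 82 kept probes against its mean deposited signal over 6 arrays (log axis); coloured lines join the probes of 1 gene, and grey points are genes with a single kept probe. Above a signal of 20000 the points lie between -0.11 and 0.29, and below 1000 between -0.30 and 0.54.

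The arrays did not order by genotype over these genes as a whole. The lowest of a gene's 6 values fell on Lox/Δ3 array 3 for 17 of the 60 genes, on Lox/Δ3 array 1 for 13 and on Δ3/Δ3 array 3 for 12. The highest fell on Δ3/Δ3 array 1 for 15, on Δ3/Δ3 array 2 for 14 and on Lox/Δ3 array 2 for 13. The median deviation of the 60 genes from their means was 0.031, 0.029 and -0.013 on Δ3/Δ3 arrays 1 to 3 and -0.011, 0.035 and -0.030 on Lox/Δ3 arrays 1 to 3, so that Lox/Δ3 array 2 was the highest of all. Member probes held 6.04%, 6.31% and 5.97% of the summed deposited signal of the Δ3/Δ3 arrays and 5.64%, 6.01% and 5.62% of that of the Lox/Δ3 arrays, ranges that overlap.

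**Figure D4:**
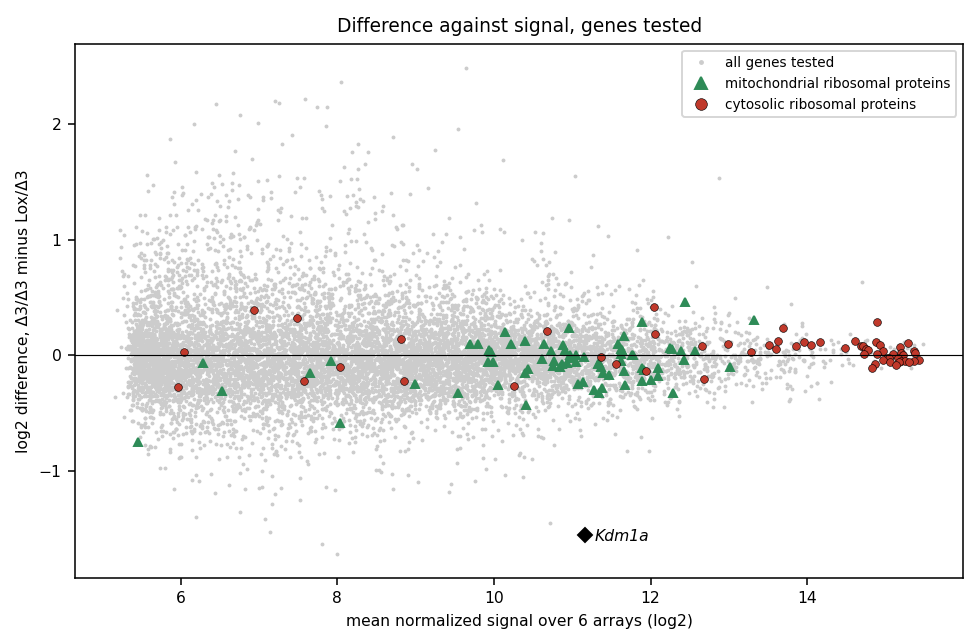
Log2 difference, Δ3/Δ3 minus Lox/Δ3, against the mean normalized signal over 6 arrays (log2) for all 10712 genes tested (grey), the 60 genes of the cytosolic set (red circles), 73 mitochondrial ribosomal protein genes (green triangles) and Kdm1a (diamond). The red circles stay between -0.28 and 0.42 and most lie at the high end of the signal, where the grey points are narrow too.

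Genes that build or serve the ribosome were looked at from lists chosen by function. Of 50 tested ribosome biogenesis genes, which process ribosomal RNA and assemble subunits, 0 were called in either direction by limma and 0 were higher and 2 lower at an unadjusted p under 0.05, against 9.7% and 8.47% of all genes. In this list 14 genes were above 0, against 46.4% of all genes, and the median was -0.10. The smallest p-values were those of Noc2l, at -0.37 ± 0.12 (SE; limma adjusted p = 0.166), and Bop1, a 60S assembly factor, at -0.41 ± 0.16 (limma adjusted p = 0.231). Of 13 genes of RNA polymerase I and its factors, which transcribe ribosomal RNA, 0 were called by limma. Over all genes 1.03% were called higher and 0.28% lower. At an unadjusted p under 0.05 in limma 2 of the 13 were higher and 1 lower, against 9.7% and 8.47% of all genes. The 13 genes had a median of -0.049, which ran from -0.20 without Δ3/Δ3 array 1 to -0.011 without Δ3/Δ3 array 3. Taf1d, a subunit of the promoter factor SL1, stood at 0.49 ± 0.12 (limma adjusted p = 0.0954), and the polymerase subunit gene Znrd1 at -0.47 ± 0.18 (limma adjusted p = 0.216).

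Another list held translation factors and other genes outside the ribosome whose messages are known for a TOP start, among them Npm1, Tpt1 and Hnrnpa1. Its 17 tested genes had a median of -0.0042, with 8 above and 9 below 0, where 46.4% of all genes were above 0. Limma called 0 of them, against 1.03% of all genes higher and 0.28% lower. At an unadjusted p under 0.05 in limma 1 of the 17 was higher, against 9.7% of all genes, and 0 lower, against 8.47%. The importin gene Ipo7 was at 0.55 ± 0.24 (SE; limma adjusted p = 0.267) and the elongation factor gene Eef2 at 0.35 ± 0.18 (limma adjusted p = 0.365). The 25 other translation factors had a median of -0.12 and 0 called, with 6 above and 19 below 0, where 46.4% of all genes were above 0. At an unadjusted p under 0.05 in limma 2 were lower, against 8.47% of all genes, and 0 higher, against 9.7%. The 2 lower ones were the initiation factor genes Eif3c, at -0.43 ± 0.13 (limma adjusted p = 0.131), and Eif2s2, at -0.45 ± 0.14 (limma adjusted p = 0.155).

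Regulators of ribosome supply gave no call with the main settings, where limma called 1.03% of all genes higher and 0.28% lower. At an unadjusted p under 0.05 in limma, 1 of the 15 mTOR and S6 kinase genes was higher and 1 lower. The 8 Myc family genes gave the same counts, against 9.7% of all genes higher and 8.47% lower. Of 15 genes of the mTOR and S6 kinase pathway 0 were called, with a median of 0.039, the mTOR inhibitor gene Deptor at 0.45 ± 0.14 (SE; limma adjusted p = 0.136) and Tsc2, another brake on the pathway, at -0.33 ± 0.14 (limma adjusted p = 0.260). Of 8 Myc family genes 0 were called, with a median of 0.073. Mxd3, whose protein opposes Myc, was at -0.53 ± 0.13 (limma adjusted p = 0.0913, and 0.0402 with array weights) and Mycl at 0.81 ± 0.21 (limma adjusted p = 0.102).

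The ribosome of mitochondria is built from a separate set of proteins. Of its 73 tested genes 1 fell and 0 rose in limma, against 0.28% and 1.03% of all genes, and the median was -0.060 with 26 above 0, where 46.4% of all genes were above 0. The fallen gene, Mrpl57, was detected on all Lox/Δ3 arrays and on no Δ3/Δ3 array. It thus met the filter only through the genotype where it was higher, which favours a fall. Its values were 5.83 ± 0.11 against 5.08 ± 0.061 (log2, mean ± SD, n = 3), at least 1.34-fold lower (limma adjusted p = 0.0369). Its call was lost without background correction, with an offset of 50, with the authors' value table, without any 1 Δ3/Δ3 array and with no filter, where limma gave an adjusted p between 0.0522 and 0.136, and it was not among the genes tested with detection on all arrays or without any 1 Lox/Δ3 array. For comparison with other abundant housekeeping genes, 27 proteasome genes had a median of -0.10, with 3 above and 24 below 0. The 16 glycolysis genes had a median of -0.037, with 6 above and 10 below 0. Over all genes the share above 0 was 46.4%. Limma called 0 in either list, against 1.03% of all genes higher and 0.28% lower. At an unadjusted p under 0.05 in limma 0 were higher in either list, against 9.7% of all genes. At that limit 0 proteasome genes and 1 glycolysis gene were lower, against 8.47%. The smallest p-values were those of the proteasome subunit genes Psmd4, at -0.26 ± 0.12 (SE; limma adjusted p = 0.290), and Psmc4, at -0.33 ± 0.16 (limma adjusted p = 0.323), and of Eno3, the muscle enolase gene, at -0.81 ± 0.17 (limma adjusted p = 0.0630, and under the threshold in 4 of the 17 alternatives, the lowest 0.0256), and Ldhb, a lactate dehydrogenase gene, at -0.30 ± 0.19 (limma adjusted p = 0.456). Over all settings tried, the medians of the ribosome biogenesis, RNA polymerase I, other translation factor and proteasome lists kept their sign, and those of the cytosolic ribosomal protein genes, of their 40S and 60S groups, and of the mitochondrial ribosomal protein, TOP start, mTOR, Myc and glycolysis lists turned in at least 1.

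**Figure D5:**
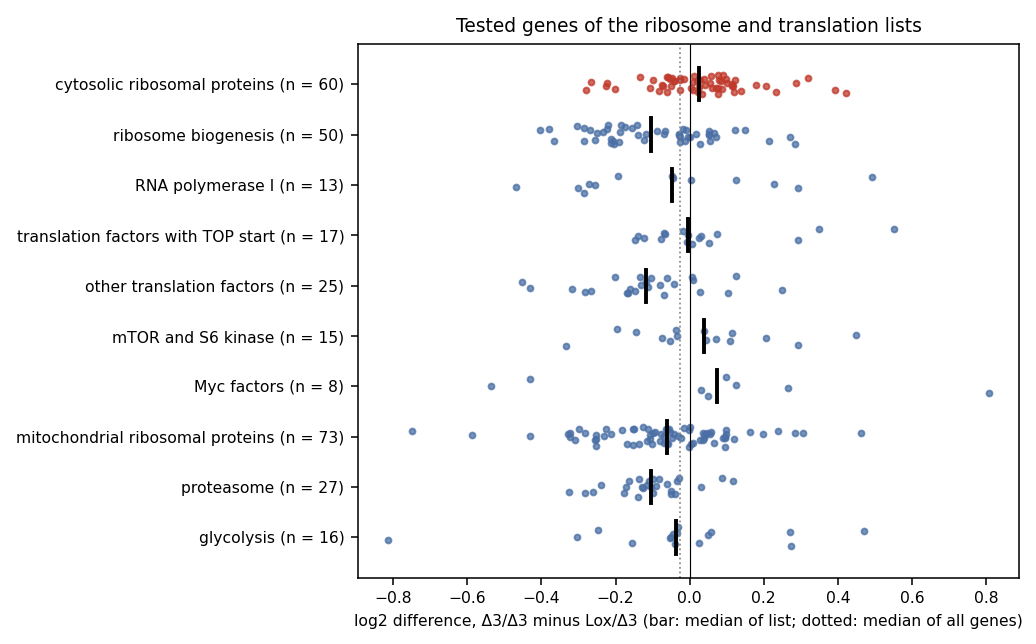
Log2 difference, Δ3/Δ3 minus Lox/Δ3, of each tested gene (points) in the cytosolic ribosomal protein set and 9 other lists, with the median of each list (bar) and of all genes tested (dotted line at -0.025). The median of the cytosolic set lies at 0.026, and those of ribosome biogenesis, other translation factors and the proteasome lie between -0.12 and -0.10.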

How the data were processed

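The main deposited file holds linear intensity for 45281 probes on 6 arrays, not normalized, and a detection p-value for every one, both as the authors exported them. A value table of the authors holds the same intensity values multiplied by 1 constant per array, 11.9 to 13.6, so that each median is 1000, as the values show; the scanner software is not given in the sources used here. Probes took their genes from the platform annotation (34885 with 1 symbol, 18 with several, 10378 with none), and symbols outside the studied set were updated through RefSeq (GRCm38.p6).

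Limma's nec corrected the background (from the detection p-values, offset 16), followed by quantile normalization and log2. A probe was kept where its detection p was under 0.05 on 3 or more arrays (19652), and a gene was represented by its kept probe with the highest mean (10712 genes). Genotypes were compared with limma's lmFit and eBayes on all 6 arrays, two-sided, with Benjamini-Hochberg adjustment over all genes, or over all kept probes, and a threshold of 0.05; 95% intervals came from the same fit. The number of arrays, 3 per genotype, limits the precision. Where no array of a genotype detected a gene, its fold is given as "at least", from the higher, per array, of its own value and the lowest detected one. The pipeline was tested on simulated data, with changes of 1.5-fold or more set only into brighter probes detected on all 6 arrays. Smaller changes, and changes of dim probes, were not checked in this way. Versions were R 4.3.3, limma 3.58.1, Python 3.11.15 and matplotlib 3.10.9.

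Named were Kdm1a, the 5 largest differences each way and the 3 highest and 3 lowest mean signals. A fixed set of stalk, disease-linked and duplicate genes was named too. From each other list the called genes or the 2 with the smallest p were named (of the markers, sums). The markers Nes, Thy1 and Mmp2, whose sign or call turned with the settings, fall outside this rule and were named after their values were seen. The same holds for the marker Col1a1, which went against the other tested fibroblast markers. It also holds for Npm1, Tpt1, Hnrnpa1, Rps10, Rpl27, Rpl32, Rpl30, Rpl4, Rpl28, Rpl29, Rpl31 and Rpl27a. The members and lists were chosen with earlier results of these data known. Ectoderm and mesoderm markers had 2 tested genes and 0 called.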

Additional observations from a re-analysis of the deposited data

How the results depend on the processing

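The count of called ribosomal protein genes stayed at 0 under all 17 alternatives, and that of called probes at 0 under the 16 that apply to probes, in limma with Benjamini-Hochberg adjustment; at an unadjusted p under 0.05 between 0 and 3 genes were higher and 0 or 1 lower, and between 2 and 10 probes passed. Over all genes the 140 calls became 24 with no filter on dim probes, 80 with detection on all arrays, 261 with median scaling, 326 with no normalization between arrays, 512 with array weights, 373 with the replicate block, and 0 to 287 leaving out 1 array (0 without any 1 Δ3/Δ3 array, 50 without Lox/Δ3 array 1 and 60 without array 2); over all probes they ranged from 7 to 674, against 226. The median of the ribosomal protein genes, 0.026, moved by more than its spread between arrays (SD 0.030) with cyclic loess, to 0.079, and lay between 0.0023 and 0.046 without 1 array; in all 17 it stayed above the median of all genes, by 0.021 to 0.12, against 0.051. Median scaling and no normalization put the median of all genes at -0.10 and -0.12. Numbers gave no firm pairing: deviations of same-numbered arrays correlated at 0.36, 0.067 and 0.40 over genes, Δ3/Δ3 array 2 more with Lox/Δ3 array 3 (0.13), and the replicate block left the members' count at 0. Signs turned for small differences. With cyclic loess Rps12 was at 0.030, Rplp2 at 0.047 and Rpl3 at 0.020. With median scaling Rps4l was at -0.023. With no normalization Rpl23 was at -0.0055, Rps4l at -0.043 and Rpl36a at -0.019. With the authors' values Rps12 was at 0.0096, Rplp2 at 0.014 and Rps4l at -0.0001. With the mean of a gene's probes Rps12 was at 0.0044, Rps2 at -0.042 and the marker Nes at -0.073. With array weights Rpsa was at -0.092, Rplp1 at 0.013, Rpl26 at -0.0003, Rps19 at -0.035, Rpl38 at -0.029, Rpl22 at 0.050, Rpl36a at -0.010 and Nes at -0.39. Leaving out 1 array gave ranges across 0 for Rps15a (-0.020 to 0.70), Rps2 (-0.039 to 0.078), Rpsa (-0.042 to 0.14), Rplp1 (-0.099 to 0.00070), Rpl23 (-0.015 to 0.023), Rps19 (-0.011 to 0.14), Rpl38 (-0.032 to 0.053), Rpl36al (-0.0010 to 0.12), Rpl22 (-0.19 to 0.20) and Nes (-0.26 to 0.39). The causes were not tested. Without Rps19bp1, an alternative chosen after the data were seen, the median was 0.028.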
